A study of Saccharomyces cerevisiae with 16 samples.

Results

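The 8 genes described here encode the lysine biosynthesis pathway of Saccharomyces cerevisiae and its activator. They are LYS20, LYS21, LYS4, LYS12, LYS2, LYS9, LYS1 and LYS14, taken by their identifiers from a table of counts for 6717 genes, by a rule that used no measured value, although the choice was made with earlier results of these data known. RNA was sequenced from grande yeast (the strain S96, with an intact mitochondrial genome) and from petite yeast made from it, each in 2 cultures per medium, in rich medium (YPD) or minimal medium (YM). Each culture was split, and 1 part received 0.055% (v:v, 550 ppm) 4-methylcyclohexane methanol (MCHM), a chemical used to clean coal, while the other part did not; the sample labels give 2.5 h of further growth, and the methods of the study give a shorter exposure. There were thus 16 libraries, 2 in each of 8 groups. All groups carry the strain's mating type a and its lys5 mutation, and YM was supplemented with lysine. The petite yeast came from an incubation of S96 with ethidium bromide, so that loss of the mitochondrial genome and any other change from that incubation cannot be told apart.

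Yeast make lysine by the aminoadipate pathway, which starts from 2-oxoglutarate and acetyl-CoA. The homocitrate synthases that open it are inhibited by lysine, and the last steps run from aminoadipate through its semialdehyde and saccharopine to lysine. Lys14, a zinc-cluster activator, switches on many of these genes when aminoadipate semialdehyde is present, and Gcn4 raises them when amino acids of any kind run short. Lys5 attaches the cofactor that the aminoadipate reductase Lys2 needs, so that lys5 yeast depend on lysine from the medium.

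LYS20 (YDL182W, chromosome IV, 133437 to 134723 in the R64 assembly, plus strand) and LYS21 (YDL131W, IV, 227393 to 228715, plus) encode the homocitrate synthases. LYS4 (YDR234W, IV, 931129 to 933210, plus) encodes homoaconitase, and LYS12 (YIL094C, IX, 186517 to 187632, minus) encodes homoisocitrate dehydrogenase. LYS2 (YBR115C, II, 469748 to 473926, minus) encodes aminoadipate reductase. LYS9 (YNR050C, XIV, 714048 to 715388, minus) encodes the dehydrogenase that forms saccharopine, and LYS1 (YIR034C, IX, 419615 to 420736, minus) the one that turns it into lysine. LYS14 (YDR034C, IV, 509737 to 512109, minus) encodes the activator. Each has 1 coding exon, and none overlaps another annotated gene, which matters because the libraries do not keep the strand.

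LYS20 and LYS21 are near copies, and their counts are therefore less certain than those of the other members. Their coding sequences of 1287 and 1323 bases matched at 91.4% of 1281 aligned bases. Of the windows of 50 positions along the alignment, gaps included, 36.6% were identical in both genes. A read wholly inside the longest identical stretch cannot be assigned to 1 of the genes by its own sequence. This stretch is 278 bases long (LYS20, IV:133773-134050, and LYS21, IV:227771-228048, R64, plus strand). It is shown because each difference between the synthases below depends on read pairs that reach outside it.
LYS20 and LYS21: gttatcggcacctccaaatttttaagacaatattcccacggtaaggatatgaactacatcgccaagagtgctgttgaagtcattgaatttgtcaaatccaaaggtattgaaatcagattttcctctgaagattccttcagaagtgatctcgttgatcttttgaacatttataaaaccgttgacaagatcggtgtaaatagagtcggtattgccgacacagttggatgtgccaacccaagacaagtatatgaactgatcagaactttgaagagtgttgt

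The 500 bases before each start codon were searched on both strands for letters known to be bound by Lys14 (TCCANCGGA, TCCANTGGA, TCCGNCGGA and TCCGNTGGA) and by Gcn4 (TGACTC). The Lys14 letters occurred in 1.57% of the 6006 windows of annotated genes and in 3 of the 8 members, and the LYS9 window was the 1 window of all that held 2 of them. The matches are shown with 10 bases on each side, 5′ to 3′ on the gene's strand, and the capitals mark the match.
LYS1 (IX:420914-420942, R64, minus strand, 188 bases before the start codon): atttttttttTCCAGCGGAatttggaatt
LYS9 (XIV:715595-715623, minus, 217 bases before): gaatcgaaatTCCGTTGGAaaaattcgct
LYS9 (XIV:715533-715561, minus, 155 bases before): attgagaattTCCAATGGAattatcagca
LYS21 (IV:227053-227081, plus, 322 bases before): gagttgaaatTCCGCTGGAaatcgtcacc

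The Gcn4 letters occurred in 12.7% of all windows and in 4 of the 8 members, LYS1, LYS2, LYS12 and LYS14. LYS1 was the member that held both kinds of match, with 2 for Gcn4, on the opposite strand (GAGTCA). No match to either was found in these windows of LYS4 and LYS20. The letters are a description of the sequence and not a measurement of binding.
LYS1 (IX:420970-420995, R64, minus strand, 244 bases before the start codon): ctaagtcgatGAGTCAaaaaagactc
LYS1 (IX:420855-420880, minus, 129 bases before): cagcgacaaaGAGTCAtaaagtcatc
LYS2 (II:474105-474130, minus, 189 bases before): ttttcgcgtgTGACTCaatgtcgaaa
LYS12 (IX:187775-187800, minus, 153 bases before): attcttaagaTGACTCtaattagagg
LYS14 (IV:512344-512369, minus, 245 bases before): ggacgcgacgTGACTCaattggaaga

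Libraries held between 2015485 and 5694566 counts, with a median of 3662481, and 5856 genes including all 8 members had enough counts to be tested. The lowest count of any member was 111, for LYS1. Counts summed over 8 mitochondrially encoded genes were 0 in every petite library and 0 to 8 in the grande libraries, so that they could not check the strain of each library. Levels are given below as counts per 1000000 (CPM) scaled with TMM factors, each time for the lower-numbered culture and then the higher-numbered one. They are shares of a library, in which fewer cells and less RNA per cell cannot be told apart. A gene was called changed when the quasi-likelihood test of edgeR, fitted over all 16 libraries and adjusted by Benjamini-Hochberg over all tested genes, gave an adjusted p under 0.05 and the change was at least 2-fold. The p-values rest on the spread between 2 cultures a group, and the common biological coefficient of variation was 29.5%.

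One library stood apart in the lysine genes. In untreated petite yeast in YM, the levels of the 8 members added up to 2239 CPM in culture 6 and 7543 CPM in culture 14. Of the 8 members, 6 differed at least 2-fold between these cultures, and all 8 were higher in culture 14, by a median of 1.79 on the log2 scale. Among all tested genes, 11.7% differed at least 2-fold between the same libraries, and the genes at least 2-fold higher in culture 14 made up 7.51% of all tested genes. In each of the other 7 groups, 0 or 1 member differed that much, and the sums of the 2 libraries differed far less, for example 3915 and 4357 CPM in petite YM with MCHM. Fold changes and some calls that use untreated petite YM are therefore given with and without culture 14. Without it, that group is 1 library whose spread is taken from the other groups, so a call there is not replicated. With 2 cultures, the data do not show which is atypical, and the sums with MCHM lie between 2239 and 7543 CPM.

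The homocitrate synthase gene LYS20 was among the most variable members. In YPD, its level was 146 and 233 CPM in grande yeast, 447 and 805 CPM with MCHM, 147 and 149.6 CPM in petite yeast, and 246 and 211 CPM in petite yeast with MCHM. In YM, it was 201 and 192 CPM in grande yeast, 917 and 1002 CPM with MCHM, 405 and 1688 CPM in petite yeast, and 1384 and 949 CPM in petite yeast with MCHM. The untreated groups in YPD and grande YM were low, the 3 remaining YM groups were highest and overlapped, and the highest group mean was 7.86 times the lowest.

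The other synthase gene, LYS21, had a narrower range, with a highest group mean 4.98 times the lowest. Its level in YPD was 136 and 133 CPM in grande yeast, 293 and 350.4 CPM with MCHM, 166 and 111 CPM in petite yeast, and 309 and 265 CPM in petite yeast with MCHM. Its level in YM was 278 and 319 CPM in grande yeast, 535 and 577 CPM with MCHM, 430.4 and 908 CPM in petite yeast, and 589 and 589 CPM in petite yeast with MCHM. Grande yeast in YM without MCHM and both MCHM groups in YPD overlapped in the middle of this order. Untreated YPD libraries of both strains lay below them and overlapped each other.

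LYS4, for homoaconitase, varied least, with a highest group mean 2.30 times the lowest. The YPD libraries held 135 and 213 CPM in grande yeast, 254 and 296 CPM with MCHM, 169 and 171 CPM in petite yeast, and 186 and 149.9 CPM in petite yeast with MCHM. The YM libraries held 223 and 314 CPM in grande yeast, 301 and 471 CPM with MCHM, 140.4 and 604 CPM in petite yeast, and 320.0 and 302 CPM in petite yeast with MCHM. Of the 7 pairs of neighbours in the order of its group means, 5 overlapped, and the untreated petite YM cultures spanned the lowest and the highest values of all YM libraries.

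LYS12, which encodes the next enzyme, homoisocitrate dehydrogenase, separated the treated from the untreated libraries in every strain and medium. In YPD, its level was 165 and 124 CPM in grande yeast, 437 and 448 CPM with MCHM, 219 and 163 CPM in petite yeast, and 283 and 318 CPM in petite yeast with MCHM. In YM, it was 215 and 216 CPM in grande yeast, 517 and 563 CPM with MCHM, 246 and 388 CPM in petite yeast, and 455 and 488 CPM in petite yeast with MCHM. It was the member with the fewest overlapping neighbours, 3 of 7, and grande YM with MCHM was its highest group, without overlap.

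LYS2, for aminoadipate reductase, was low in untreated YPD and intermediate in untreated grande YM. YPD levels were 121 and 157 CPM in grande yeast, 391 and 655 CPM with MCHM, 144 and 163 CPM in petite yeast, and 449 and 434 CPM in petite yeast with MCHM. YM levels were 249.6 and 372 CPM in grande yeast, 680.2 and 808 CPM with MCHM, 329 and 949 CPM in petite yeast, and 621 and 559.8 CPM in petite yeast with MCHM. The 5 highest groups, which are all MCHM groups and untreated petite YM, overlapped from neighbour to neighbour.

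LYS9, for the saccharopine-forming enzyme, was highest in petite yeast in YM, with or without MCHM. Its level in YPD was 82.9 and 115 CPM in grande yeast, 158 and 241 CPM with MCHM, 71.5 and 93.6 CPM in petite yeast, and 99.7 and 131 CPM in petite yeast with MCHM. Its level in YM was 81.1 and 137 CPM in grande yeast, 125 and 244 CPM with MCHM, 283 and 1372 CPM in petite yeast, and 385 and 385 CPM in petite yeast with MCHM. The 4 petite YM libraries lay above the other 12, and the 6 groups below them overlapped from neighbour to neighbour.

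LYS1, for the enzyme that releases lysine, had the widest range, with a highest group mean 17.1 times the lowest. The YPD libraries held 51.1 and 52.5 CPM in grande yeast, 225 and 463 CPM with MCHM, 50.9 and 50.6 CPM in petite yeast, and 219 and 239 CPM in petite yeast with MCHM. The YM libraries held 109.8 and 271 CPM in grande yeast, 486 and 646 CPM with MCHM, 276 and 1460.2 CPM in petite yeast, and 438 and 489 CPM in petite yeast with MCHM. The 4 untreated YPD libraries lay within 2 CPM of each other and below all other libraries, while the 6 other groups overlapped from neighbour to neighbour.

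LYS14, the gene of the activator, overlapped across all YPD groups and was higher in 3 of the 4 YM groups. In YPD, its level was 54.4 and 42.0 CPM in grande yeast, 43.4 and 62.8 CPM with MCHM, 48.5 and 58.7 CPM in petite yeast, and 45.1 and 63.4 CPM in petite yeast with MCHM. In YM, it was 58.2 and 61.0 CPM in grande yeast, 108 and 112 CPM with MCHM, 129 and 174 CPM in petite yeast, and 164 and 152 CPM in petite yeast with MCHM. The 4 YPD groups and untreated grande YM overlapped, the grande YM libraries with MCHM lay above them, and the petite YM libraries above those.

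**Figure D1:**
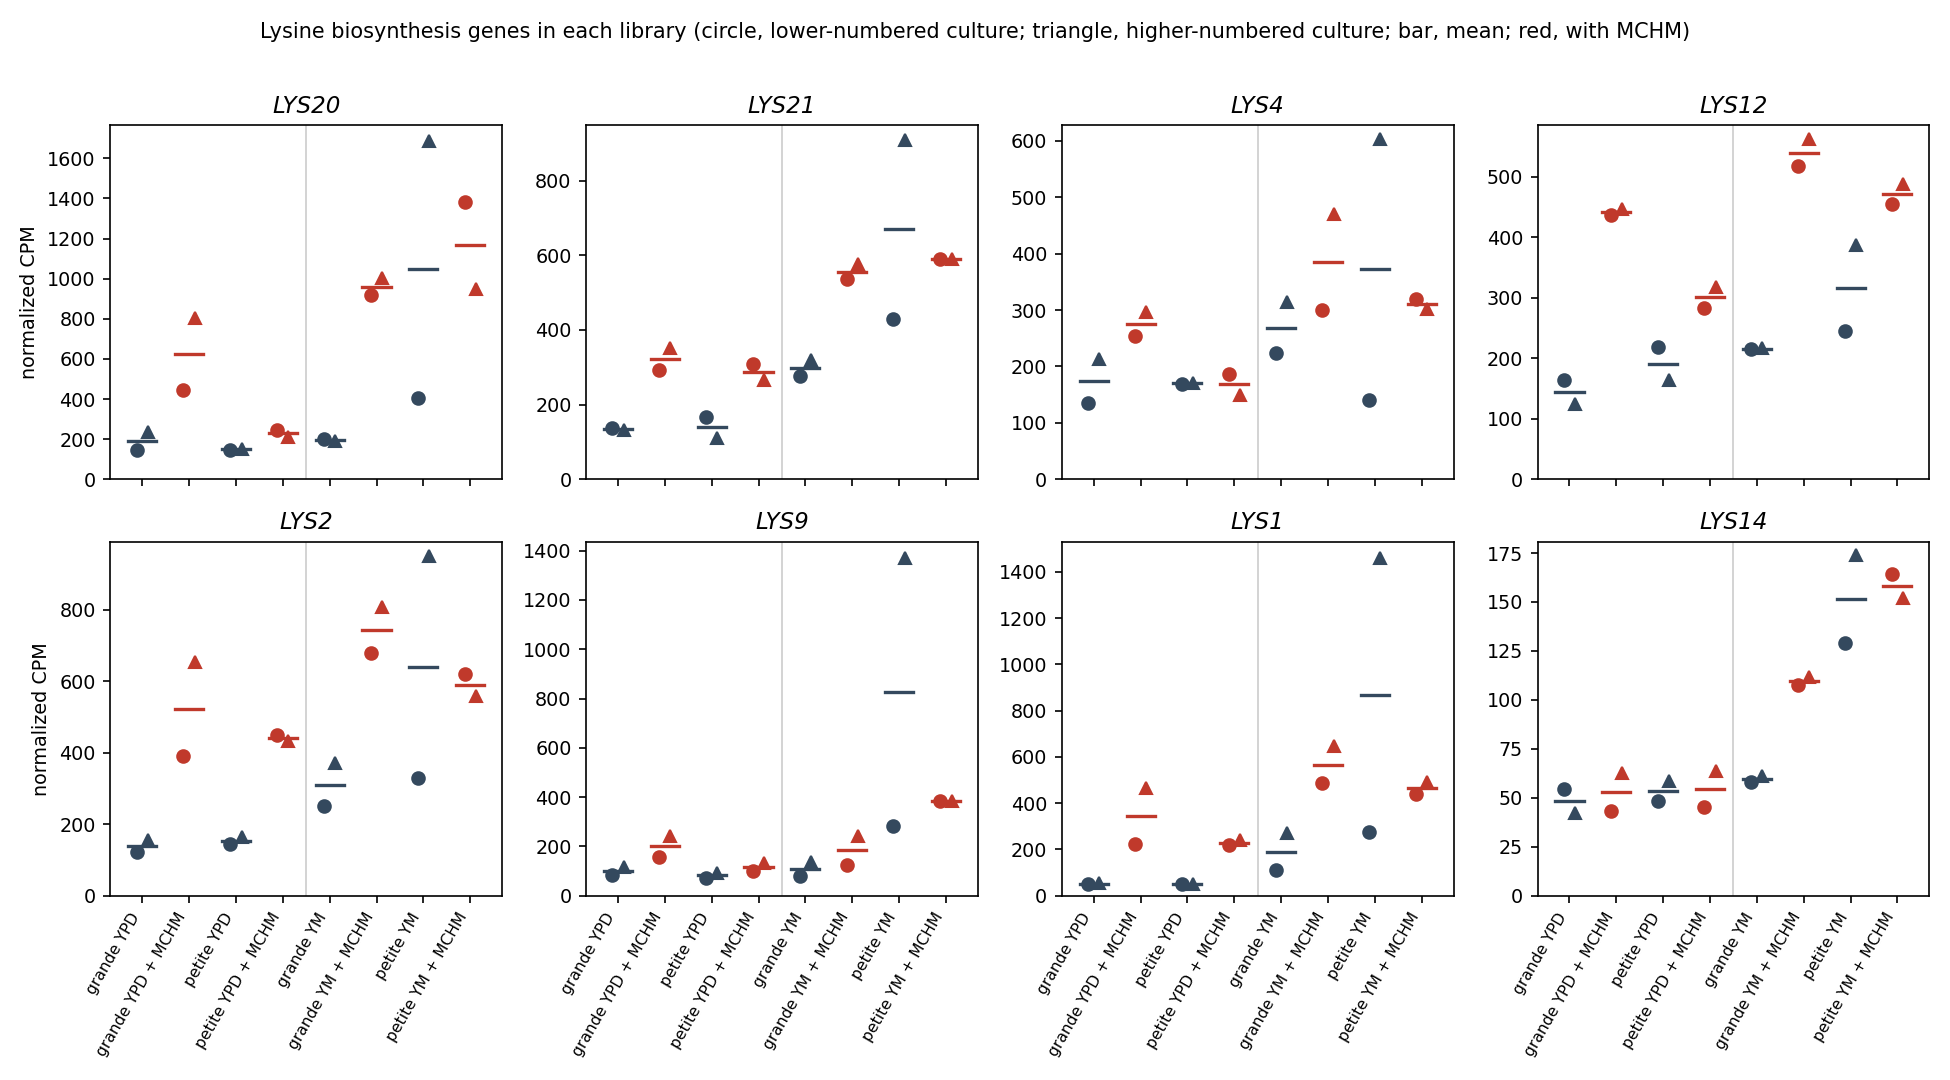
Normalized CPM of each of the 8 lysine genes (y axis, linear, from 0, with its own scale in each panel) in the 8 groups (x axis); circles are the lower-numbered culture, triangles the higher-numbered one, bars the mean of the 2, and red marks MCHM. The untreated petite YM group has the widest spread, for example 276 and 1460.2 CPM for LYS1.

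Levels of different genes were compared per kilobase of coding sequence. In untreated grande YPD, the mean was 147 CPM per kilobase for LYS20, 129.5 for LYS12, 102 for LYS21, 83.8 for LYS4, 73.9 for LYS9, 46.2 for LYS1, 33.2 for LYS2 and 20.3 for LYS14. In petite YM with MCHM, the highest were LYS20 at 906, LYS21 at 445.5, LYS12 at 422.5 and LYS1 at 413 CPM per kilobase, and LYS14 remained the lowest at 66.6. LYS1 thus stood above LYS2 and LYS14 alone in the first of these groups, and above LYS9, LYS4, LYS2 and LYS14 in the second.

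Across the 16 libraries, the members varied together. Pearson's r between the log2 CPM of 2 members ranged from 0.559 (LYS4 and LYS14) to 0.977 (LYS1 and LYS2), and r between a member and the mean of the other 7 ranged from 0.784 for LYS4 to 0.957 for LYS1. The libraries share groups and cultures, so these are descriptions. The genes outside the lists used here whose pattern was most like the members' mean were STB4 (r = 0.974), ALD5 (0.956), BSC5 (0.954), SDT1 (0.954) and YIL165C (0.949), each over the 16 libraries.

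MCHM raised part of the pathway in grande yeast in YPD. LYS12 rose 3.06-fold (log2 fold change 1.62, SE 0.259, adjusted p = 0.010 by edgeR's quasi-likelihood test, Benjamini-Hochberg adjusted) and LYS2 rose 3.76-fold (1.91, SE 0.428, adjusted p = 0.040). These 2 members of 8 were called, against 1.76% of all tested genes called higher. LYS1 had the largest difference of the members, 2.73 (SE 0.653), with an adjusted p of 0.052, and LYS20 was 1.72 higher (SE 0.524, adjusted p = 0.11) and LYS21 1.26 higher (SE 0.319, adjusted p = 0.064), all on the log2 scale. Libraries with and without MCHM did not overlap for 7 members, all higher with MCHM (21.9% of all tested genes), and LYS14, at 0.15, was the exception. The median of the 8 was 1.44, and that of all tested genes −0.03.

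With the divided culture as a replicate block in the fit, 4 members were called in grande YPD, since LYS1 (2.65, adjusted p = 0.021) and LYS21 (1.25, adjusted p = 0.040) joined them. The fit on the 4 grande YPD libraries alone called 0 members, but it called only 4 of 5596 genes. Without the untreated petite YM library of culture 14, the median of the members was 1.43. LYS12 was called in 14 of the 16 fits that leave out 1 library and LYS2 in 4, with the lowest value for LYS2, 1.54, without the treated library of culture 9.

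In petite yeast in YPD, LYS1 and LYS2 rose with MCHM. LYS1 rose 4.51-fold (log2 fold change 2.17, SE 0.640, adjusted p = 0.048 from the same test) and LYS2 rose 2.87-fold (1.52, SE 0.423, adjusted p = 0.039), 2 members of 8 against 4.08% of all tested genes. LYS21 was 1.05 higher, with an adjusted p of 0.051, and was called with the culture as a replicate block (1.07, adjusted p = 0.026). LYS12 was at 0.65, LYS20 at 0.62 and LYS9 at 0.48 (adjusted p = 0.64 for LYS9), and LYS4 (−0.02) and LYS14 (0.02) were near 0. Libraries did not overlap for 6 members (26.8% of all tested genes). The median of the members was 0.64, against −0.03 for all genes. LYS2 was called in 10 of the 16 fits that leave out 1 library and LYS1 in 5, and their log2 fold changes stayed between 1.43 and 1.61 and between 2.11 and 2.32.

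In grande yeast in YM, LYS20 and LYS12 rose with MCHM. LYS20 rose 4.89-fold (log2 fold change 2.29, SE 0.533, adjusted p = 0.028 from the same test) and LYS12 rose 2.51-fold (1.33, SE 0.257, adjusted p = 0.012), 2 of 8 against 2.66% of all tested genes. LYS1 was 1.57 higher (adjusted p = 0.16), LYS2 1.26 (0.099), LYS21 0.90 (0.11) and LYS14 0.88 (0.061), none of them called. Libraries did not overlap for 6 members (26.5% of all tested genes), the exceptions being LYS4 and LYS9. The median of the members was 1.08, against 0.00 for all tested genes. Both called members were called in 12 of the 16 fits that leave out 1 library. Without the untreated petite YM library of culture 14, the median of the members was again 1.08. The fit on the 4 grande YM libraries alone called 1 member, and 89 of 5652 genes. When the counts of LYS20 and LYS21 were added up, the sum rose by 1.61 (adjusted p = 0.048).

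In petite yeast in YM, 0 members were called with MCHM by edgeR's quasi-likelihood test, against 0.546% of all tested genes in either direction. At an unadjusted p under 0.05 there was 1, LYS12, against 7.84% of all tested genes, and DESeq2's Wald test called 0, against 87 of 5287 genes. The cultures moved in opposite directions. In culture 6, all 8 members were higher with MCHM, by 1.77 for LYS20, 1.19 for LYS4, 0.91 for LYS2, 0.89 for LYS12 and 0.35 to 0.67 for the other 4 on the log2 scale. In culture 14, 7 members were lower with MCHM, by −1.83 for LYS9, −1.58 for LYS1 and −0.997 to −0.20 for the other 5, and LYS12 was 0.33 higher. The difference lay in the untreated parts, since the treated parts differed by −0.54 to 0.16 on the log2 scale, for example 438 and 489 CPM for LYS1 against 276 and 1460.2 CPM untreated.

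The fitted log2 fold changes in petite YM were −1.10 for LYS9 (SE 0.575, adjusted p = 0.67), −0.91 for LYS1 (adjusted p = 0.76), 0.57 for LYS12 (adjusted p = 0.61) and −0.26 to 0.16 for the other 5. Without the untreated library of culture 14, all 8 were positive, with LYS9 at 0.44, LYS1 at 0.74, LYS12 at 0.93 and LYS20 at 1.52, and again 0 were called. LYS9, LYS1, LYS21, LYS4 and LYS2 thus changed sign when that library was left out. Without the untreated library of culture 6 instead, LYS20 was at −0.53 and LYS14 at −0.14, both of the opposite sign, and LYS12 was at 0.28. The lowest values among the fits that leave out 1 library were −1.83 for LYS9 and −1.66 for LYS1.

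**Figure D2:**
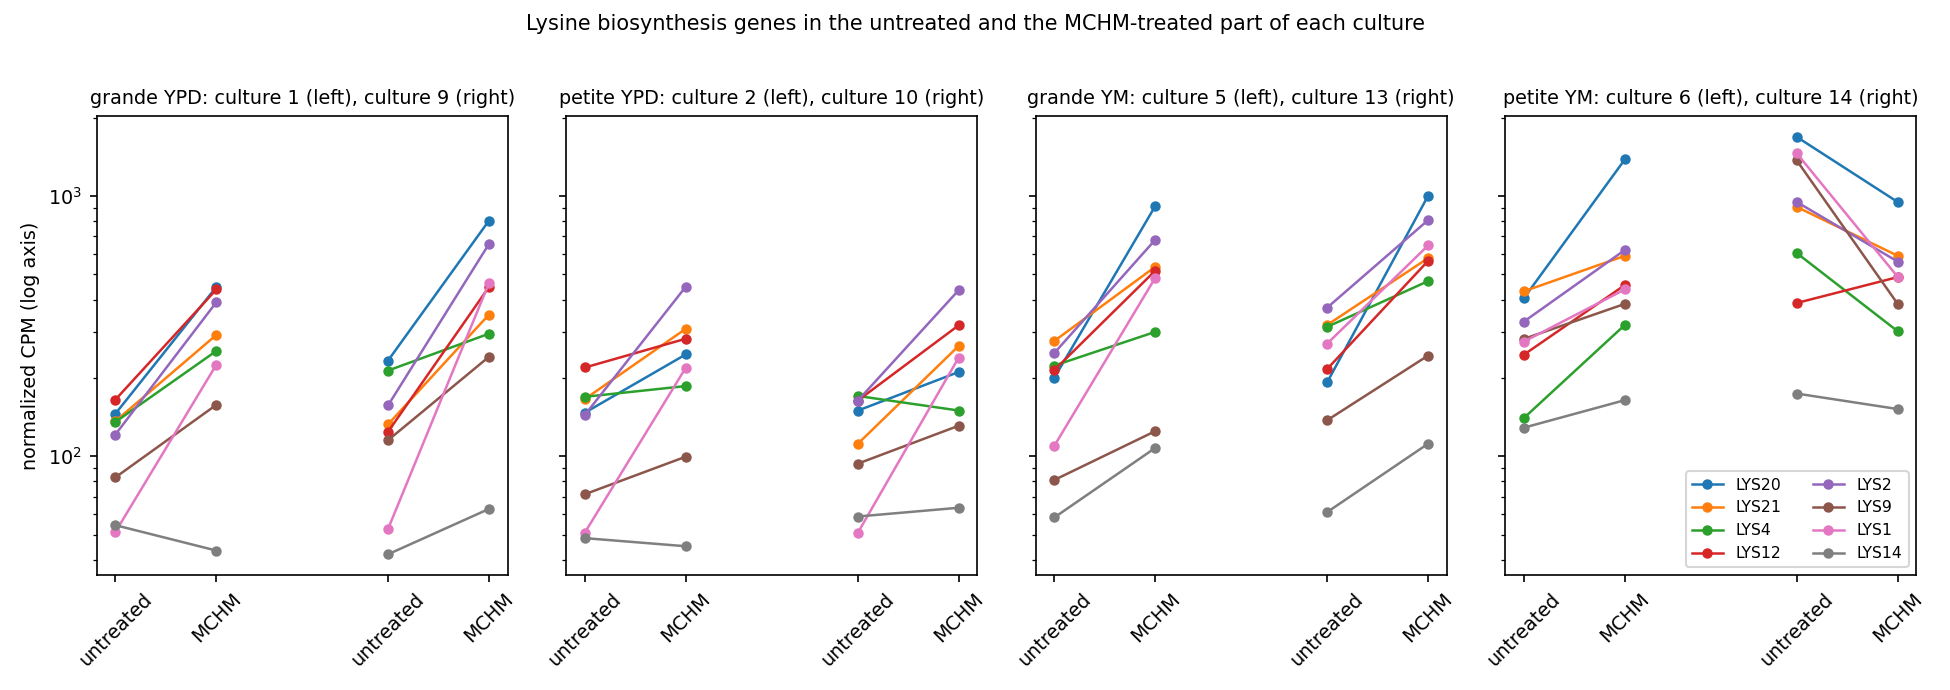
Normalized CPM (y axis, log scale) of the 8 lysine genes in the untreated and the MCHM-treated part of each of the 8 divided cultures, 1 panel for each strain and medium, lines joining the parts of 1 culture. The lines rise in most cultures, and in petite YM culture 14 all but that of LYS12 fall from untreated levels that reach 1688 CPM for LYS20.

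Whether the response to MCHM differed between strains or media was tested as a difference of differences. With all libraries, the response in petite yeast was smaller than in grande yeast, that is, the difference was negative, for all 8 members in both media, with medians of −0.54 in YPD and −1.23 in YM, and 0 members were called in either. Of all tested genes, 0% were called in YPD and 0.0171% in YM. At an unadjusted p under 0.05 there was 1 member in YPD (LYS12) and there were 6 in YM, against 4.35% and 8.61% of all genes. DESeq2 called 0 members in both, against 55 of 831 genes in YPD and 65 of 5658 in YM. The largest in YM were −2.48 for LYS1 (adjusted p = 0.38) and −2.13 for LYS20 (adjusted p = 0.37), and without the library of culture 14 they were −0.83 and −0.77, the median in YM was −0.43, and LYS4 changed sign, from −0.78 to 0.62. In YPD, LYS14 was at 0.20, LYS1 at 0.09 and LYS2 at 0.07 without the treated grande library of culture 9. LYS21 was at 0.11 without the untreated petite library of culture 2. LYS20, LYS4, LYS12 and LYS9 stayed negative in YPD with each library left out.

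The MCHM response in YM less that in YPD gave 0 called members in each strain, against 0% of all tested genes in grande yeast and 0.461% in petite yeast. In grande yeast the members ranged from −1.16 (LYS1) to 0.73 (LYS14), 0 of them at an unadjusted p under 0.05 (7.53% of all genes) and 0 called by DESeq2 (44 of 5534 genes). In petite yeast LYS1 was at −3.08 (adjusted p = 0.15), 3 members had an unadjusted p under 0.05 (13.5% of all genes), and DESeq2 called 1, against 221 of 3925 genes. Without culture 14's untreated library LYS1 was at −1.43, and LYS20, LYS4 and LYS12 changed sign. The comparisons within petite YM share the same untreated libraries, so that their values are not independent of each other.

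In untreated YPD, no lysine gene was called between petite and grande yeast. The log2 differences, petite less grande, ranged from −0.35 for LYS20 (SE 0.512) to 0.41 for LYS12, and 0 members were called, as were 0% of all tested genes. None had an unadjusted p under 0.05, against 2.60% of all genes, and DESeq2 called 0, against 6 of 6401 genes. With SE values of this size a 2-fold difference in LYS20 could have been missed.

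With MCHM in YPD, 7 of the 8 members were lower in petite than in grande yeast and 0 were called, against 1.52% of all tested genes. LYS20 had the largest difference, −1.45 (adjusted p = 0.29), from 447 and 805 CPM in grande to 246 and 211 CPM in petite yeast. Libraries did not overlap for 4 members, LYS20, LYS4, LYS12 and LYS9, all lower in petite yeast (23.1% of all tested genes). The members with an unadjusted p under 0.05 were LYS20 and LYS12, against 11.1% of all genes, and DESeq2 called 0, against 172 of 5906 genes.

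In untreated YM, most of the pathway was higher in petite yeast. LYS9 was 7.56-fold higher (log2 difference 2.92, SE 0.613, adjusted p = 0.012 by edgeR's quasi-likelihood test, Benjamini-Hochberg adjusted), LYS20 5.33-fold (2.41, SE 0.536, adjusted p = 0.014), LYS1 4.56-fold (2.19, SE 0.633, adjusted p = 0.038), LYS14 2.54-fold (1.35, SE 0.254, adjusted p = 0.0080) and LYS21 2.24-fold (1.17, SE 0.316, adjusted p = 0.031). These 5 of 8 compare with 5.57% of all tested genes called higher. LYS2 (1.04), LYS12 (0.56) and LYS4 (0.47) were not called. Libraries of the strains did not overlap for 6 members (30.1% of all tested genes), LYS2 and LYS4 being the exceptions. The median of the members was 1.26, against 0.07 for all tested genes.

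The size of this difference depended on which of the 2 untreated petite YM cultures was used, and which is atypical cannot be told. Without culture 14, LYS9 was at 1.37, LYS14 at 1.11, LYS20 at 1.05, LYS1 at 0.54, LYS21 at 0.53, LYS2 at 0.08 and LYS4 at −0.94. The highest values among the fits that leave out 1 library were 3.64 for LYS9, 3.10 for LYS20 and 2.94 for LYS1. The activator gene LYS14 was called in 15 of the 16 fits that leave out 1 library, LYS9 and LYS20 in 13, LYS21 in 8 and LYS1 in 4. The fit on the 4 untreated YM libraries alone called 0 members, but it called only 8 genes in all, where the fit over all libraries called 624.

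With MCHM in YM, 0 members were called between the strains, against 3.72% of all tested genes, and 0 had an unadjusted p under 0.05 (21.9% of all genes), nor did DESeq2 call any (367 of 6029 genes). LYS9 was 1.06 higher in petite yeast (adjusted p = 0.31), and the other 7 lay between −0.33 and 0.53. Libraries of petite yeast lay above those of grande yeast for LYS9, LYS14 and LYS21 and below them for LYS2 and LYS12, 3 and 2 of 8 against 28.3% and 28.3% of all tested genes.

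The strain difference in YM less that in YPD, both untreated, was positive for all 8 members and called for 0, against 0.529% of all tested genes. The largest values were 3.18 for LYS9 (adjusted p = 0.11), 2.77 for LYS20 (0.11) and 2.22 for LYS1 (0.25). At an unadjusted p under 0.05 there were 5 members (15.9% of all genes), and DESeq2 called 2, against 197 of 3430 genes. Without culture 14's library these values were 1.63, 1.40 and 0.56, and 5 of the 8 members were positive, with LYS4 at −0.90, LYS12 at −0.22 and LYS2 at −0.06.

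In untreated petite yeast, most lysine genes were higher in YM, which held added lysine, than in YPD. LYS1 was 17.1-fold higher in YM (log2 difference 4.10, SE 0.691, adjusted p = 0.0022 from the same test), LYS9 by 3.32 on the log2 scale (adjusted p = 0.0040), LYS20 7.05-fold (2.82, adjusted p = 0.0047), LYS21 4.83-fold (2.27, adjusted p = 0.0010), LYS2 4.16-fold (2.06, adjusted p = 0.0069) and LYS14 2.82-fold (1.50, adjusted p = 0.0023). These 6 of 8 compare with 9.0% of all tested genes called higher. LYS4 (1.13, adjusted p = 0.14) and LYS12 (0.73, adjusted p = 0.064) were not called. Libraries did not overlap for 7 members, with LYS4 as the exception (28.8% of all tested genes), and the median of the members was 2.16, against −0.02.

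Without the library of culture 14, untreated petite YM is 1 library, and the values were smaller. They were 2.44 for LYS1, 1.77 for LYS9, 1.63 for LYS21, 1.45 for LYS20, 1.26 for LYS14 and 1.10 for LYS2. LYS4 changed sign, to −0.28. The fit on the 4 untreated petite libraries alone called 1 member. The sum of LYS20 and LYS21 was 2.58 higher in YM (adjusted p = 0.0024 from the same test), and 1.54 higher without culture 14.

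In untreated grande yeast all 8 members were higher in YM than in YPD and 0 were called by edgeR's quasi-likelihood test, against 2.60% of all tested genes. LYS1 was 1.88 higher (adjusted p = 0.14), LYS2 1.16 (0.17), LYS21 1.15 (0.078) and the others between 0.05 (LYS20) and 0.62. Libraries did not overlap for 6 members (20.9% of all tested genes), LYS9 and LYS20 being the exceptions. At an unadjusted p under 0.05 there were 4 members (18.2% of all genes), and DESeq2's Wald test called 2, against 295 of 5906 genes. Without the untreated petite YM library of culture 14, LYS1 was at 1.88 and LYS21 at 1.15.

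Among the MCHM-treated cultures, YM against YPD gave called members in petite yeast only. There LYS20 was 5.10-fold higher in YM (log2 difference 2.35, SE 0.534, adjusted p = 0.025 from the same test) and LYS14 2.91-fold (1.54, SE 0.255, adjusted p = 0.0077), 2 of 8 against 2.12% of all tested genes. LYS9 was 1.74 higher (adjusted p = 0.097) and LYS21 1.04 (0.070). All 8 members were without overlap between the media (31.6% of all tested genes), and the untreated library of culture 14 is in neither group. Leaving it out of the shared fit moved the median of the members from 1.03 to 1.02. LYS14 was called in 14 of the 16 fits that leave out 1 library and LYS20 in 12, and 0 members were called without the treated petite library of culture 14 in YM or of culture 2 in YPD. In grande yeast with MCHM 0 members were called, against 0.427% of all tested genes, with LYS14 at 1.04 (adjusted p = 0.098) and LYS9 at −0.11. At an unadjusted p under 0.05 there were 2, LYS14 and LYS21 (13.3% of all genes), DESeq2 called 1 (173 of 5782 genes), and 7 members did not overlap (24.8%). Whether these media differences differ between the strains with MCHM was not tested.

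**Figure D3:**
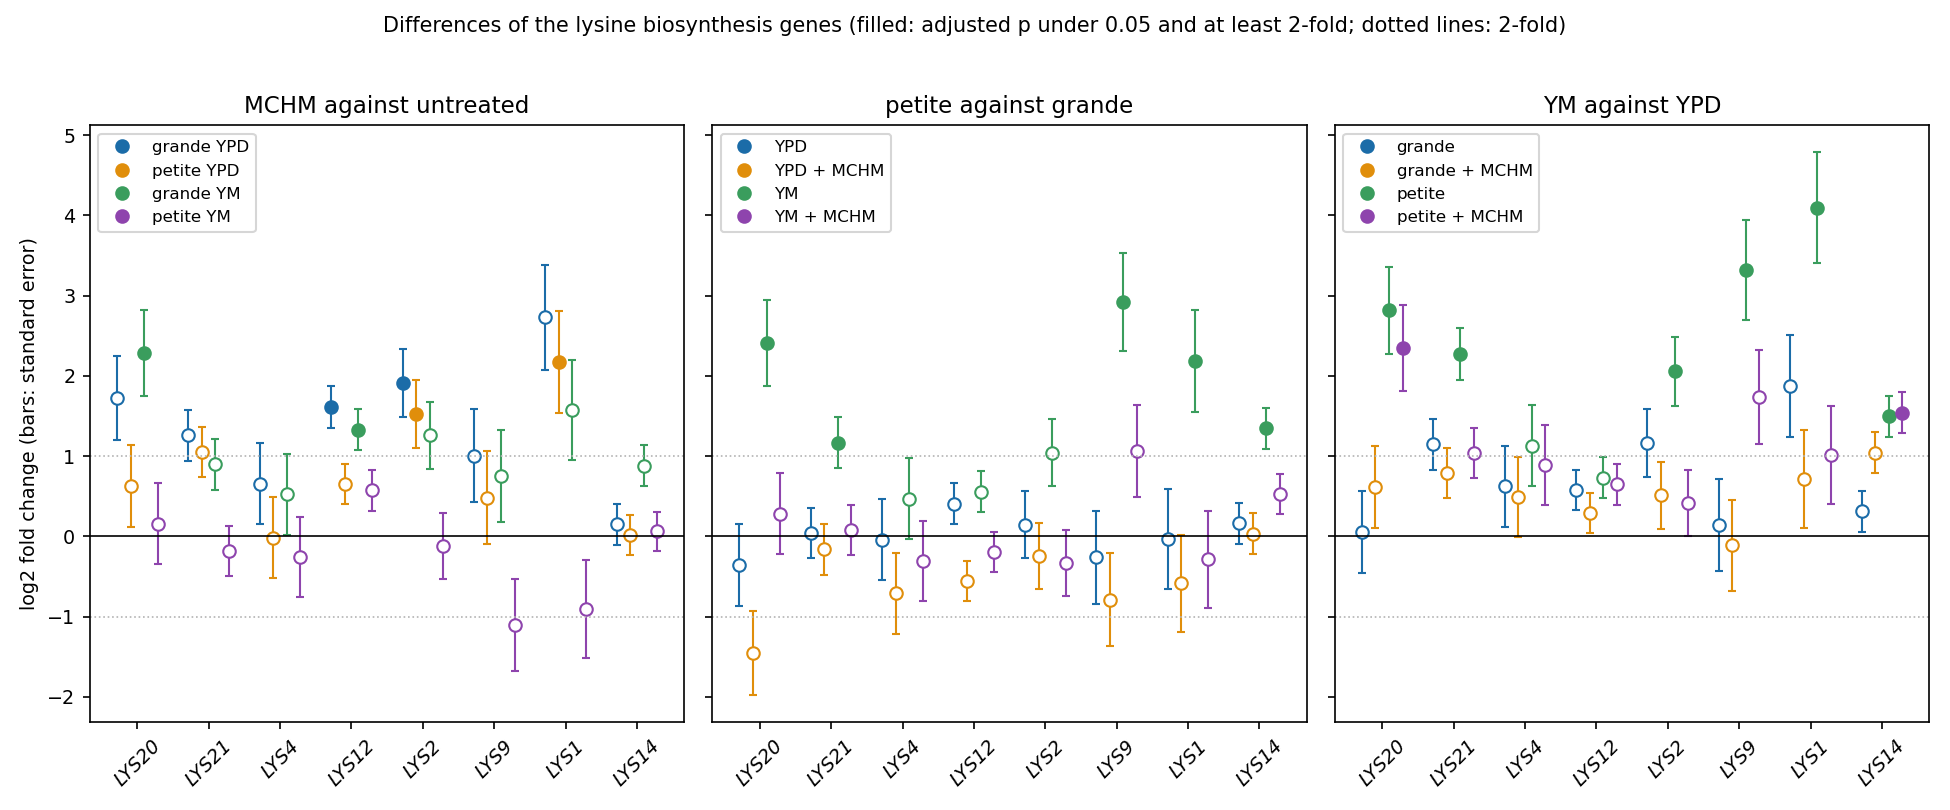
Log2 fold changes of the 8 lysine genes (y axis; bars, standard error) for MCHM against untreated, petite against grande and YM against YPD, each in 4 settings given by colour. Filled points were called (adjusted p under 0.05 and at least 2-fold), and the 6 filled green points of YM against YPD reach from 1.50 for LYS14 to 4.10 for LYS1.

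The other genes of lysine supply and use were followed as a list of 9. LYS5, the gene mutated in S96, was transcribed in all groups, from at most 16.6 CPM in petite YPD to 66.4 CPM in 1 grande YM library with MCHM, and the counts do not show whether the product works. It rose with MCHM in petite YPD (log2 fold change 1.07, adjusted p = 0.039), where ODC1, one of the 2 mitochondrial carriers for 2-oxoglutarate and aminoadipate, rose by 1.23 (adjusted p = 0.013). With all libraries, these were the only 2 of the 9 called in any MCHM comparison, and 4.08% of all tested genes were called higher in petite YPD. How many of the 9 were called changed when 1 library was left out. ARO8, an aminotransferase that can make aminoadipate, had values of 1.49 in grande YPD, 1.16 in petite YPD and 1.30 in grande YM (adjusted p = 0.063 to 0.066), from 671 and 815 CPM to 1744 and 2440.1 CPM in the first of these.

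Between YM and YPD in untreated petite yeast, 4 of the 9 rose, against 9.0% of all tested genes. They were ODC2 (log2 difference 1.94, adjusted p = 0.024), ODC1 (1.84, adjusted p = 0.00092), ARO8 (1.67, adjusted p = 0.010) and LYS5 (1.44, adjusted p = 0.0066). The median of the 9 was 0.63, against −0.02 for all tested genes, and the same 2 untreated petite YM libraries enter it. Without culture 14, which leaves 1 untreated petite YM library, ODC1 was at 1.95, ARO8 at 1.09, LYS5 at 0.97 and ODC2 at 0.93. The median was then 0.64. With all libraries, no gene of the list was called in the other comparisons, including those between the strains.

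The genes of lysine uptake, charging and control changed less. The lysine permease gene LYP1 stayed between 334 and 652 CPM in the 16 libraries, and GCN4 mRNA between 1199 and 2311 CPM, although Gcn4 is set mainly by translation, which RNA counts do not measure. KRS1, for the lysyl-tRNA synthetase that charges lysine onto its tRNA, and MKS1, known as a negative regulator of 2-oxoglutarate synthesis, were not called in any comparison. ACO1, for aconitase of the citric acid cycle, varied more. It ranged from 50.1 to 346 CPM in petite YPD libraries, which are the values of the 2 untreated cultures, and from 301 to 966 CPM in grande YPD libraries. In grande YM its levels were 967 and 562 CPM untreated, and 232 and 240 CPM with MCHM. With all libraries it was not called in any comparison.

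**Figure D4:**
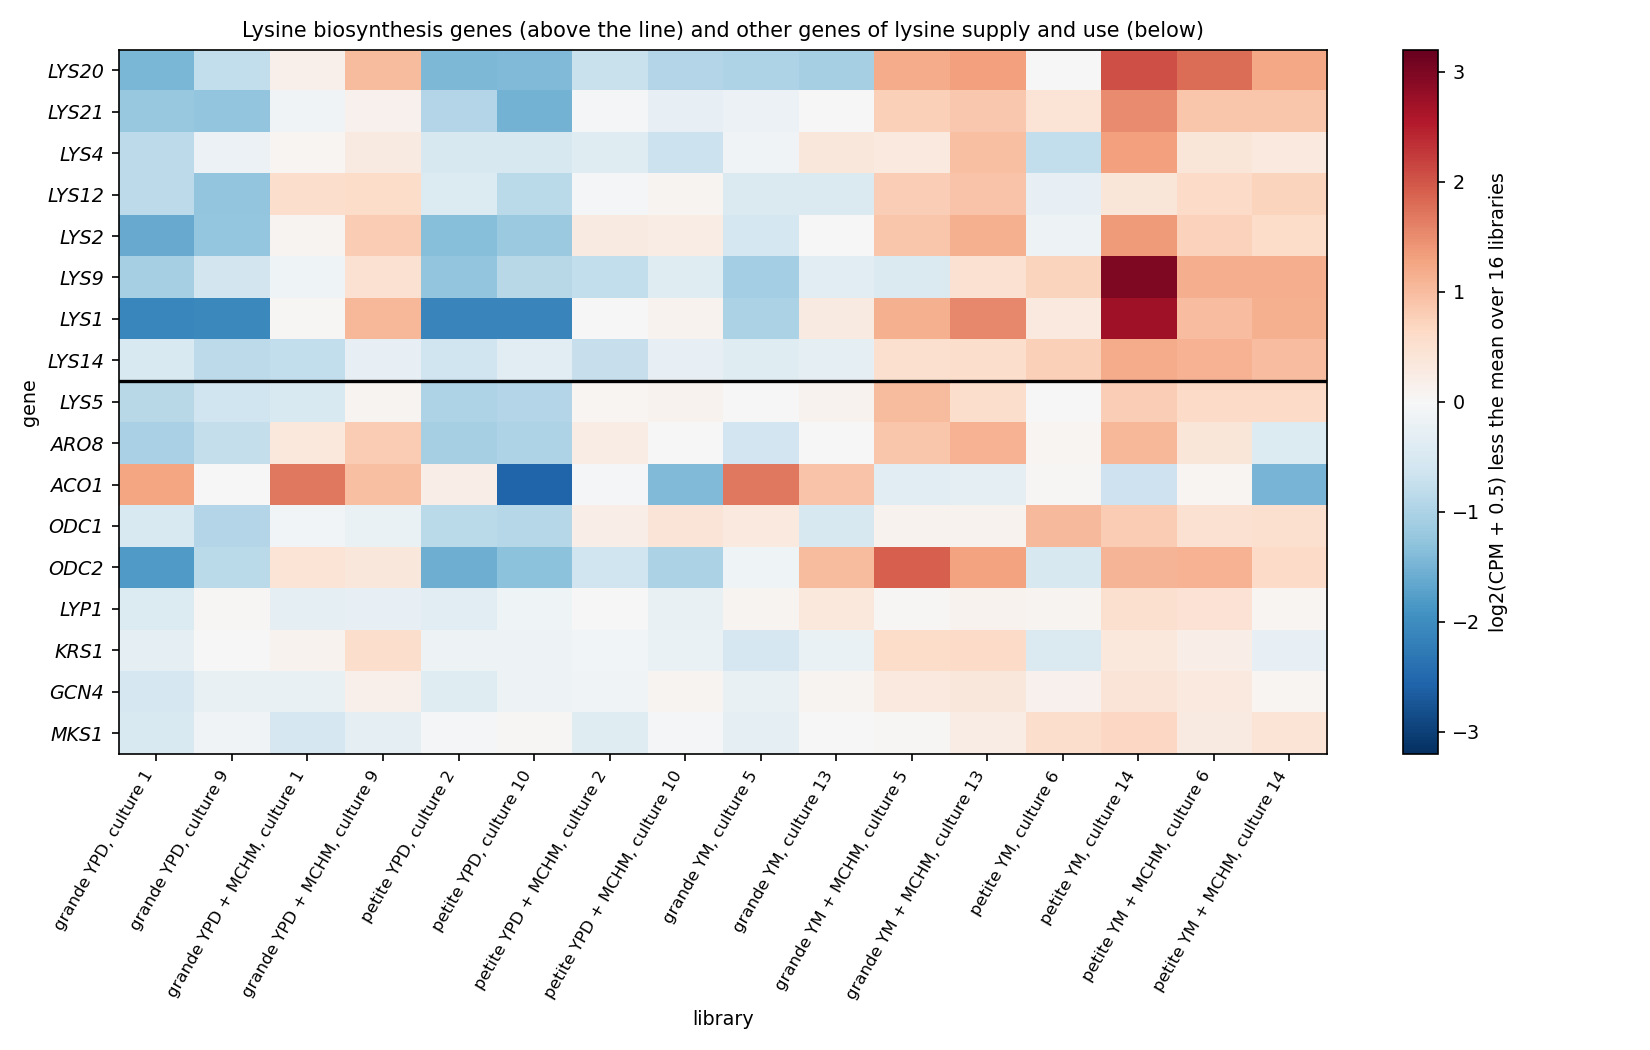
Log2(CPM + 0.5) of the 8 lysine genes (above the line) and of 9 other genes of lysine supply and use (below it) in each of the 16 libraries (x axis), less the mean of the gene over the libraries, as colour. The untreated petite YM library of culture 14 is the darkest column for LYS9 and LYS1, at 1372 and 1460.2 CPM.

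The response was set beside that of 3 other amino acid pathways, by counts and medians in the same fit. With MCHM in grande YPD, 4 of 9 arginine genes, 4 of 11 genes for branched-chain amino acids and 4 of 7 histidine genes rose. Their medians were 1.96, 1.14 and 1.28, beside 2 of 8 lysine genes and a median of 1.44. Of all tested genes, 1.76% were called higher. In petite YPD these counts were 5, 1 and 3 and the medians 1.89, 0.79 and 0.75, beside 2 and 0.64 for lysine. The share of all tested genes was 4.08%. In grande YM the counts were 2, 2 and 5, with medians of 1.25, 0.87 and 1.39, beside 2 and 1.08, and the share was 2.66%. In petite YM, 0 genes of any of the 4 lists were called, against 0.546% of all tested genes in either direction. In the first 3 of these settings the medians of all 4 lists were above 0.

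Between the strains in untreated YM, the lysine list had 5 called genes of 8, against 0 of 9 for arginine, 2 of 11 for branched-chain amino acids and 0 of 7 for histidine, where 5.57% of all tested genes were called higher. The medians were 1.26 for lysine, 0.94 for arginine, 0.17 for branched-chain amino acids and 0.42 for histidine. The difference between the lists was not tested. Without culture 14, which leaves 1 untreated petite YM library, the medians were 0.53 for lysine, 0.14 for arginine, 0.12 for branched-chain amino acids and −0.17 for histidine. The fit on the 4 untreated YM libraries alone called 0 lysine genes, but it called only 8 genes in all.

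For untreated YM against YPD in grande yeast, 6 of 9 arginine genes were called higher (median 2.36). Of 11 genes for branched-chain amino acids, 3 were higher and 1 lower (median 1.24). Among the others, 1 of 7 histidine genes was higher (median 0.62) and 0 of 8 lysine genes were called (median 0.60). Of all tested genes, 1.86% were called higher and 0.734% lower. In petite yeast, 9 of 9 arginine, 7 of 11 branched-chain, 3 of 7 histidine and 6 of 8 lysine genes were called higher. The share of all tested genes was 9.0%, and the medians of the lists were 2.91, 1.53, 1.11 and 2.16. Without culture 14, which leaves 1 untreated petite YM library, the medians were 1.99, 1.11, 0.63 and 1.36.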

How the data were processed

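Unstranded paired-end libraries were sequenced on an Illumina MiSeq, and the authors deposited whole-number counts per gene made with Rsubread, with no normalization. The submitters' processing notes name CASAVA 1.7, TopHat2 2.0.12, DESeq2 1.8.1 and the R64 (sacCer3) build; the annotation used for counting is not given in the sources used here. Reads that match both LYS20 and LYS21 may have been lost or split. A second table by the authors, with their DESeq2 log2 fold changes and p-values, was not used. Columns were assigned to groups by name. Their names carry culture numbers but not the labels' replicate numbers.

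Counts were analysed with edgeR 4.0.16 in R 4.3.3 (filterByExpr with a minimum count of 10 and a minimum total of 15, TMM, quasi-likelihood test, a mean for each of 8 groups) for 12 comparisons and 5 differences between them, with p-values adjusted within each over 5856 genes. Standard errors follow from each fold change and its F statistic. DESeq2 1.42.0, other scalings, no filter, the compared groups alone, summed LYS20 and LYS21, replicate blocks and each library left out were alternatives. CPM values used the TMM factors, and 0.5 was added on log2 scales. Sequences and symbols (6025 matched) come from RefSeq R64, read with biopython 1.88 in Python 3.11.15. Fits were tested on simulated data.

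The labels state that cultures were divided, so culture numbers pair treated with untreated libraries. Deviations from group means of such pairs correlated at 0.52, 0.48, 0.34 and 0.34 across genes. Over all pairs of groups, these included and matched by lower or higher culture number, the median was 0.45 (range 0.026 to 0.74).

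The members and lists were chosen with earlier results of these data known. Named were all members, 9 other genes of the pathway and the 5 genes outside the lists most correlated with the members' mean. A further gene planned for that list is not reported here. Only counts and medians are given for lists.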

Additional observations from a re-analysis of the deposited data

How the results depend on the processing

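Of 1249 alternative values for the single members that were called or differed at least 2-fold in a comparison, 1100 kept their direction and side of the threshold, 87 were no longer called, 60 became called and 2 reversed, both without untreated petite YM culture 14 (LYS9 with MCHM in petite YM, 0.44, with a range over libraries left out of −1.83 to 0.44, and LYS4 in YM against YPD in petite yeast, −0.28, with a range of −0.28 to 1.82). Of 1909 values for members below 2-fold and not called, 83 changed sign, 12 of them without untreated petite YM culture 14. The values of the gene lists without that library were added after seeing the data. The number of members called with MCHM in grande YPD, 2 in the report, was 5 by DESeq2, 0 with the compared groups alone, 4 where the culture was the replicate block, and 5 with a block for the lower or higher series of culture numbers, which was chosen after seeing the data. With MCHM in petite YPD, it was 1 in place of 2 with library size alone. With MCHM in grande YM, it was 1 in place of 2 with the compared groups alone and 4 with the series block. Between strains in YM, it was 0 in place of 5, and for YM against YPD in petite yeast 1 in place of 6, with the compared groups alone. For YM against YPD in grande yeast, DESeq2 and the series block gave 2 in place of 0, and in grande yeast with MCHM 1 in place of 0. For petite yeast with MCHM, the series block gave 4 in place of 2. Of the differences between comparisons, the MCHM response in YM less YPD in petite yeast gave 1 by DESeq2 and 1 with the series block in place of 0, and the strain difference in YM less YPD gave 2 and 1. The cause of these shifts was not tested. The culture block changed no other count by over 1.5 times and could not be fitted to comparisons between strains or media. Leaving out each library gave 0 to 5 members with MCHM in grande YPD, 0 to 3 in petite YPD, 0 to 3 in grande YM, 0 to 6 between strains in YM, 0 to 2 for YM against YPD in grande yeast, 5 to 8 in petite yeast and 0 to 4 in petite yeast with MCHM, 0 to 1 for the MCHM response in YM less YPD in petite yeast, 0 to 2 for the strain difference in YM less YPD, and 0 in the others; in these fits a lone library is assumed to vary like the other groups. Over all genes, library size alone moved the median log2 difference between strains in YM from 0.07 to 0.33, with 521 genes higher and 174 lower in place of 326 and 298, and gave 86 and 57 in place of 103 and 25 with MCHM in grande YPD. DESeq2 called 282 genes there in place of 128, and the compared groups alone 4. In YM between strains these were 767 and 8 in place of 624. With 2 libraries a group, differences near 2-fold were mostly not detectable at this depth and spread.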

Other observations

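The 5 genes whose pattern over the 16 libraries was most like the lysine genes belong to other processes where a role is known. STB4 encodes a zinc-cluster protein, ALD5 a mitochondrial aldehyde dehydrogenase and SDT1 a pyrimidine nucleotidase, while BSC5 and YIL165C have no clear role. BSC5 rose with MCHM by 2.69 on the log2 scale in grande YPD (adjusted p = 0.024 by edgeR's quasi-likelihood test, Benjamini-Hochberg adjusted), by 2.36 in petite YPD (adjusted p = 0.015) and by 2.11 in grande YM (adjusted p = 0.022), and it was at −0.24 in petite YM (adjusted p = 0.93). In untreated yeast in YM, BSC5 was 3.19 higher in petite than in grande yeast (adjusted p = 0.0031), and SDT1 was 2.43 higher (adjusted p = 0.016). STB4 rose by 1.17 in YM against YPD in untreated petite yeast (adjusted p = 0.0093). All were picked for their likeness to the lysine genes over these libraries, and the comparisons with untreated petite YM include culture 14. Without that library, which leaves 1 in its group, BSC5 was at 0.59 with MCHM in petite YM and 2.36 higher in petite yeast in YM. SDT1 was then at 1.30 between the strains and STB4 at 0.76 between the media.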
